A study of Mus musculus with 21 samples.

Results

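The 10 genes described here code for the coactivators YAP (Yap1) and TAZ (Wwtr1), for the TEAD transcription factors they bind (Tead1, Tead2, Tead3 and Tead4) and for proteins of the Hippo pathway or its readout (Lats2, Amotl2, Ajuba and Ankrd1). They were chosen by symbol as a possible bypass of MEK inhibition, 10 of the 34478 genes in the deposited table, and all 10 were among the 19300 genes that passed the filter on low values. RNA was sequenced from murine PDAC (pancreatic ductal adenocarcinoma) cell lines #3, #4, #6, #7, #9 and #10, from mice that carried Ptf1a wt/Cre together with Trp53 loxP/loxP, in which Cre under Ptf1a control deletes Trp53 in the pancreas. All groups share the same engineered alleles. Parental cells had not been selected with the drug (6 samples), resistant cells grew in the MEK inhibitor trametinib at 100-fold the inhibitory dose (IC50) of the parental line (6 samples), and P12 cells had been kept without trametinib for 12 passages after resistance (6 samples). P5 cells, for which the study states 5 drug-free passages, came from lines #3, #7 and #9 (3 samples), although the label of #7 and of #9 gives 12. A line was sequenced a single time in a state, which makes the 6 lines the replicates. The p-values of the main fit measure the spread of levels between lines within states and ignore that a line recurs in every state. Where a fit with a term for the line changed a call, its value is given too.

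The Hippo pathway is a kinase cascade in which MST kinases with the scaffold SAV1 activate LATS kinases. LATS phosphorylates YAP and TAZ, which are then held in the cytoplasm or degraded. Unphosphorylated YAP and TAZ enter the nucleus and, bound to TEAD factors, switch on genes of growth, survival and the matrix, among them brakes of the pathway itself such as Lats2 and Amotl2. RNA levels do not report the phosphorylation or location of YAP and TAZ.

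The core TEAD motif GGAATG was searched on both strands in the 250 bases before each RefSeq start (GRCm38), and 8 of the 10 genes had an entry, with 12 starts. It occurred in 8 of the 12 starts, where the overlapping windows of both Wwtr1 starts hold the same match, and 12.6% of all 32851 such windows of the genome held it. By gene it occurred in 6 of the 8, and 14.4% of all 27025 genes with an entry had it before at least 1 start. Tead2 and Lats2 had no match in their windows, and Tead1 and Tead4 had no entry. The AP1 motif TGANTCA and the CRE core TGACGT, neither of which contains the TEAD motif, matched 0 of the 12 starts and 6.75% and 6.47% of all windows. A match is a string of letters and not a measured binding site. The matches of the coactivator genes and of the pathway's readout genes are given as 30 bases on the strand that reads GGAATG, which is in capitals, so that the flanks can be compared.
Yap1, chr9:8004720-8004749, minus strand, 141 bases before the start: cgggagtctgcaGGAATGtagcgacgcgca
Wwtr1, chr3:57576029-57576058, minus strand, 136 bases before the start: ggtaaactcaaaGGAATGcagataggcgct
Amotl2, chr9:102717727-102717756, minus strand, 65 bases before the start: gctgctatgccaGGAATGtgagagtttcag
Ajuba, chr14:54577830-54577859, plus strand, 186 bases before the start: gaggggcactgtGGAATGtatccatcaacg
Ajuba, chr14:54577808-54577837, plus strand, 164 bases before the start: ttgtttacagttGGAATGcgcggaggggca
Ankrd1, chr19:36120037-36120066, minus strand, 210 bases before the start: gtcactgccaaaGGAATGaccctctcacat
Ankrd1, chr19:36119950-36119979, minus strand, 123 bases before the start: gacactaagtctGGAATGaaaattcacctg

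Samples held 28.6 to 37.1 M normalized counts (M for mega), from an estimated 24.1 to 42.6 M reads, so that 3 reads were worth 2.31 to 4.06 normalized counts (counting error only). Resistant cells carried the mark of MEK inhibition: all 8 of 8 genes of a list of MEK-ERK output were called lower than in parental cells, against 2.73% of all genes. In P12 versus resistant cells 7 of 8 were called higher, against 2.13% of all genes called in either direction. The cell line as a block made this 8 of 8, against 2.52% called higher, and added Ccnd1 (log2 2.01, limma adjusted p = 0.0131 without and 0.00642 with the block). The labelled cell type was checked with 7 epithelial markers, whose summed level was 15945 to 283309 normalized counts in parental, 1014 to 209985 in resistant and 489 to 205786 in P12 cells, lowest in line #9 in each state, with Epcam listed at 0 in all samples of these states. The 7 fibroblast markers, collagens among them, summed to 102 to 24841 in parental, 473 to 577627 in resistant and 248 to 152525 in P12 cells. Leukocyte (6 of 7 markers in the table), endothelial (7 of 7) and acinar (7 of 7) lists summed to at most 2759.7 normalized counts in any sample. The endothelial sum had a median of 92.4 in parental, 410.4 in resistant and 125 in P12 cells, and its marker Tek was called higher in resistant than in parental cells (log2 5.90, SE 1.14, limma adjusted p = 0.00200), at up to 2512 normalized counts in line #6, and lower in P12 than in resistant cells (log2 -5.84, adjusted p = 0.00427). The other tested endothelial markers were split and not called without the block. In resistant versus parental cells Kdr (log2 1.17) and Tie1 (0.45) were higher, and Cdh5 (-1.59), Pecam1 (-0.40) and Vwf (-0.15) lower. In P12 versus resistant cells Cdh5 (2.70), Pecam1 (1.39) and Vwf (1.10) were higher, and Kdr (-1.49) and Tie1 (-0.37) lower. Of the leukocyte markers, Csf1r had 2530.0 normalized counts in resistant cells of line #10 and was not called (log2 2.93, SE 0.98, limma adjusted p = 0.0486). Emcn, Ptf1a and Amy2a5 were at 0 in all resistant samples. Median sums in parental, resistant and P12 cells were 247188, 62432 and 50687 for the epithelial list and 491, 111209 and 26005 for the fibroblast list. The epithelial, fibroblast and endothelial sums therefore shifted between states, the epithelial sum without a return in P12. Its single markers were split in P12 versus resistant cells, and none was called. Cdh1 (log2 3.85), Cldn7 (1.29), Krt18 (0.65) and Krt8 (0.15) were higher, and Krt7 (-2.04) and Krt19 (-0.44) lower. The median of Cdh1 was 30049 in parental, 58.4 in resistant and 2162 in P12 cells. The part of these shifts in the results was not tested. Because line #9 stood apart in these markers and in Yap1, results that turn on it are given with and without it.

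Lats2 was higher in resistant than in parental cells and lower again in P12. Amotl2 was lower in P12 than in resistant cells, and its difference between resistant and parental cells was called with the line as a block alone. Genes were called at a limma adjusted p below 0.01 with a log2 fold change above 1 or below -1. In resistant versus parental cells 1 of the 10 genes was called (Lats2, higher), against a background of 5.30% of all genes tested in either direction and 2.57% called higher. Between P12 and resistant cells 2 of 10 were called (Amotl2 and Lats2, both lower), against 2.13% in either direction and 0.850% called lower. In P12 versus parental cells limma called 0 of 10, against 0.114%, and 2 of 10 (Ajuba and Tead4) had an unadjusted p below 0.05, against 15.3%. When the fit held a term for the line (the block), 2 of 10 (Amotl2 and Lats2, higher) were called in resistant versus parental cells, against 10.5% in either direction and 4.85% called higher. Likewise 3 of 10 (Amotl2, Ajuba and Lats2, lower) were called in P12 versus resistant cells, against 4.52% and, called lower, 2.00%. The median log2 fold change of the 10 genes was 0.26 in resistant versus parental cells (-0.0049 over all genes), -0.30 in P12 versus resistant cells (0.022) and -0.54 in P12 versus parental cells (0.028). In 6 of 6 lines, 3 of the 10 genes moved the same way from parental to resistant cells, against 18.5% of all genes, 3 from resistant to P12 cells, against 16.0%, and 3 from parental to P12 cells, against 13.4%. A single gene of the 10, Amotl2, had values that did not overlap between P12 and resistant cells, against 2.45% of all genes, and none was without overlap between resistant and parental cells, against 5.99%.

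**Figure D1:**
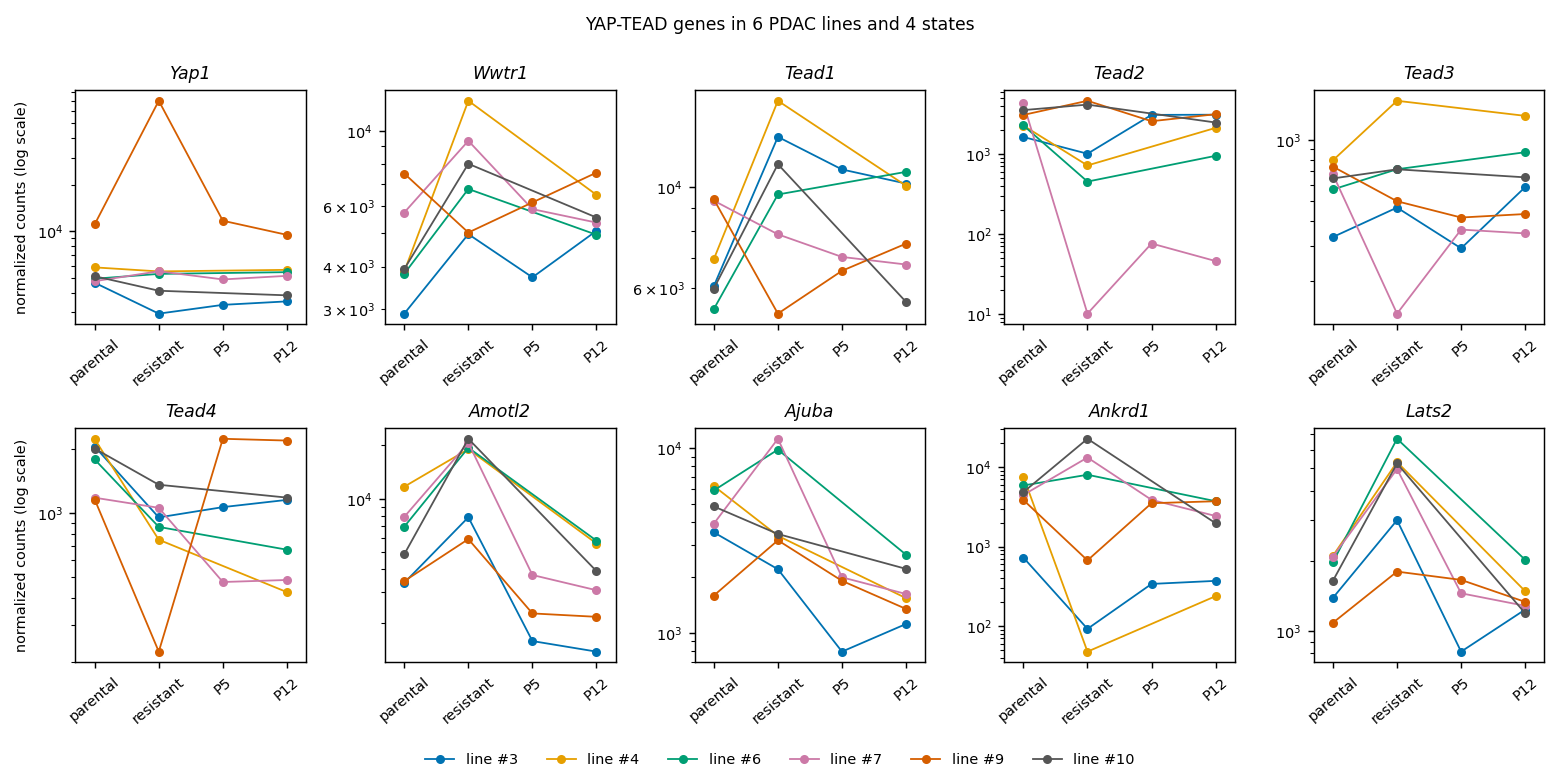
Normalized counts (log axis) of the 10 genes in parental, resistant, P5 and P12 cells, with a line joining the samples of each cell line. Lats2 and Amotl2 peak in resistant cells of 6 of 6 lines, Yap1 is raised in resistant cells of line #9 at 69769.9 normalized counts, and Tead2 drops to 10.1 in resistant cells of line #7.

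Yap1 (chr9:7931999-8004596, minus strand, GRCm38), the transcriptional coactivator restrained by LATS, differed by log2 values of -0.66 to 0.21 between resistant and parental cells of 5 lines and by 2.65 in line #9. Parental cells had 4659 (line #3) to 11116 (line #9) normalized counts with a median of 5040.3. Resistant cells had 2943 (line #3) to 69769.9 (line #9) with a median of 5414. P12 cells had 3531 (line #3) to 9498 (line #9) with a median of 5309. Line #9 was the highest in every state, and the states overlapped. The resistant sample of line #9 was 6.28-fold above its own parental sample, and its P5 and P12 samples, at 11718 and 9498, lay near the parental value again. Over the 6 lines the log2 fold change of Yap1 in resistant versus parental cells was 0.32 (SE 0.55, limma adjusted p = 0.753) and was not called. Leaving out the resistant sample of line #9 turned it to -0.34, and leaving out line #9 in all states to -0.15.

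The resistant cells of line #9 were also high in genes around Yap1, a look taken after the Yap1 values had been seen. Of 15 other tested genes within 2 Mb, 10 had a log2 difference above 2 between resistant and parental cells of line #9, against 7.99% of all annotated genes tested. One of the 10, Mmp27, went from 0 to 3.93 normalized counts, about the value of 3 reads in that sample. In any of the other 5 lines, 6 of the 15 passed that size. Birc2, an inhibitor of apoptosis, went from 2110.4 normalized counts in parental to 21447 in resistant cells of line #9, and then to 2048 in P5 and 1452 in P12. Dcun1d5, a cofactor of cullin neddylation, went from 3612 to 26848 and then to 3661 and 2623. Tmem123, a membrane receptor, went from 6787 to 81151 and then to 6152 and 5201. All 3 were thus high in the resistant sample alone of that line. Among the other 5 lines the log2 difference of Birc2 was 0.17 to 1.16 and that of Dcun1d5 was -0.11 to 0.68, below the 3.34 and 2.89 of line #9. For Tmem123 the other lines reached 3.64, past the 3.58 of line #9. Not every neighbour was raised: Birc3, next to Birc2, went from 678 to 61.0 in line #9, and Arhgap42 went from 1286 to 1461. The median log2 difference of the 14 tested genes within 1 Mb of Yap1 was 2.86 in line #9 and 0.09 to 0.61 in the other 5 lines. Of the 10 raised genes, 7 were within a log2 difference of 1 of the parental value in P12 cells of line #9, Mmp27 among them. With 1 sample per state in the line these values have no replicate check. The study sequenced the genome of parental and resistant cells of line #9, and those DNA data were not analysed here.

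**Figure D2:**
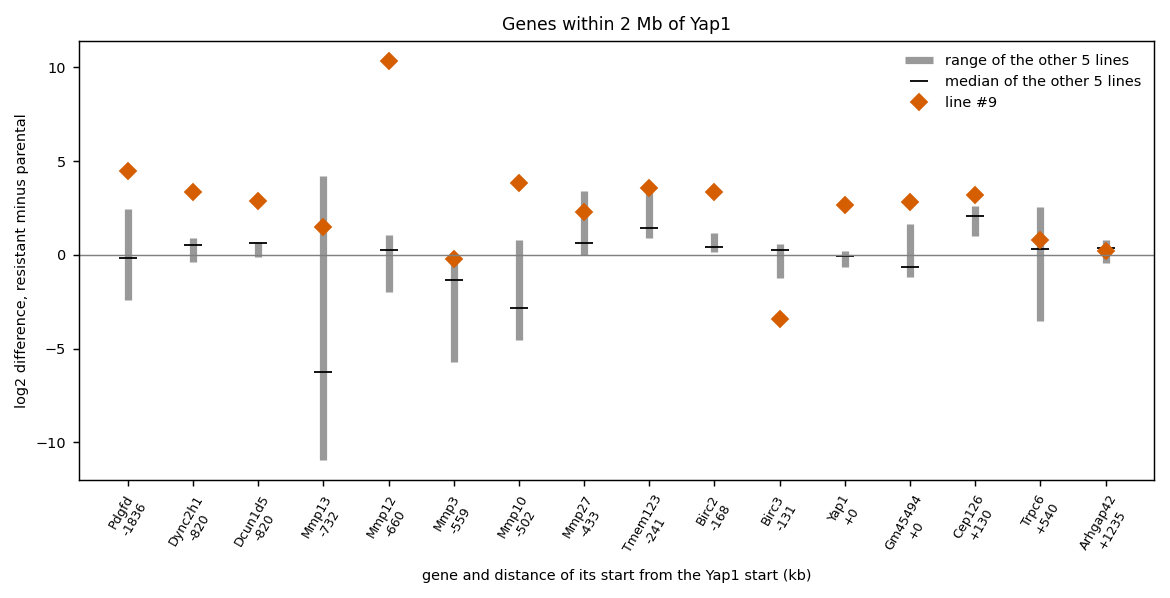
Log2 difference between resistant and parental cells for Yap1 and the 15 tested genes within 2 Mb, ordered by the distance of their start from that of Yap1 (kb). Diamonds are line #9, grey bars and dashes the range and median of the other 5 lines, and 10 of the 15 neighbours lie above 2 in line #9.

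Wwtr1 (chr3:57455649-57575910, minus strand) codes for TAZ, the paralogue of YAP. Its normalized counts were 2910.4 to 7491 in parental cells (median 3900), 4976 to 12244 in resistant cells (median 7377) and 4956 to 7539 in P12 cells (median 5474). The highest resistant sample was line #4 and the states overlapped. From parental to resistant cells it was higher in 5 of 6 lines, by log2 differences of 0.70 (line #7) to 1.66 (line #4). Line #9 alone was lower, with a difference of -0.57. The log2 fold change of 0.74 (SE 0.24, limma adjusted p = 0.0432) was not called, nor was it with the line as a block (adjusted p = 0.0160). The RNA of Yap1 relative to that of Wwtr1, per kb of the longest coding transcript, was 0.932 to 1.80 in parental cells with a median of 1.57. In resistant cells of 5 lines it was 0.507 to 0.886, below the parental value of the same line in each, and in line #9 it was 15.6. In P12 cells it was 0.781 to 1.42. With all exons of the gene as the length, the parental median was 0.720 in place of 1.57, so the level of this ratio depends on the length taken while its order between samples does not.

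The TEAD factors carry the DNA contact of the complex and cannot activate genes without a coactivator. Tead1 (chr7:112679318-112906807, plus strand) had 5410 to 9399 normalized counts in parental cells (median 6515), 5286 to 15445 in resistant cells (median 10427) and 5607 to 10796 in P12 cells (median 8794). Lines #3, #4, #6 and #10 were higher in resistant than in parental cells, by log2 differences of 0.83 to 1.15. Lines #7 and #9 were lower, with differences of -0.24 and -0.83. In resistant versus parental cells the change was 0.48 on the log2 scale (SE 0.24, limma adjusted p = 0.191) and was not called.

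Tead2 (chr7:45215753-45233644, plus strand) varied more between lines in resistant and P12 cells than the other TEAD genes, with an SD on the log2 scale of 3.18 and 2.35. It had 1635 to 4303 normalized counts in parental cells (median 2683), 10.1 to 4643 in resistant cells (median 865) and 45.8 to 3153 in P12 cells (median 2304). Line #7 had the highest parental value, 4303, and then 10.1 in resistant, 76.0 in P5 and 45.8 in P12 cells, so its level stayed low without the drug. In lines #4 and #6 resistant cells had 720.2 and 452 normalized counts, and P12 cells of these lines had 2127 and 950.4. In lines #9 and #10, by contrast, the resistant sample, at 4643 and 4158, was above the parental one. From parental to resistant cells the log2 fold change was -2.08 (SE 1.29, limma adjusted p = 0.305) and was not called.

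Tead3 (chr17:28331671-28350817, minus strand) was at 332 to 795 normalized counts in parental cells, 139 to 1565 in resistant cells and 346 to 1318 in P12 cells, with overlapping states. Its medians were 661, 608 and 620.0. The lowest resistant sample was again line #7, at 139 against 676 in its parental cells, and the highest was line #4. A log2 fold change of -0.15 in resistant versus parental cells (SE 0.43, limma adjusted p = 0.854) was not called and turned to 0.27 without line #7.

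Tead4 (chr6:128224288-128300823, minus strand) was lower in resistant than in parental cells in 6 of 6 lines, as were 9.49% of all genes tested. Parental cells had 1156 to 2217 normalized counts (median 1893), resistant cells 224 to 1356 (median 907) and P12 cells 426 to 2186 (median 912). The states overlapped, since resistant cells of line #10 at 1356 lay above parental cells of lines #7 and #9. The log2 fold change was -1.13 (SE 0.45, limma adjusted p = 0.0961), or an adjusted p of 0.0861 with the line as a block, and was not called. Line #9 had the lowest resistant value, 224, and the highest P12 value, 2186, beside 1156 in its parental and 2228 in its P5 cells. In the other 5 lines, P12 stayed below parental cells, at 426 to 1181 normalized counts.

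Per kb of transcript, the 4 TEAD genes together had 1876 to 2831 normalized counts in parental, 1188 to 3049.8 in resistant and 975 to 2549 in P12 cells, so the sums overlapped between states. Their shares shifted. Tead1 made up 23.8% to 37.8% of the TEAD RNA in parental cells (median 30.9%) and 24.7% to 66.6% in resistant cells (median 59.7%), lowest in line #9. The share of Tead2 had a median of 35.0% in parental and 11.3% in resistant cells, and was 63.6% in resistant cells of line #9. In P12 cells the median shares of Tead1 and Tead2 were 42.7% and 32.1%. Resistant cells of lines #3, #4, #6 and #7 thus held TEAD RNA that was mostly Tead1, while that of line #9 was mostly Tead2. In line #10 Tead2 had the largest share in resistant cells, 40.1% beside 36.9% for Tead1, and 41.3% in parental cells. With all exons as the length the medians of Tead1 were 30.8% and 62.6%.

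**Figure D3:**
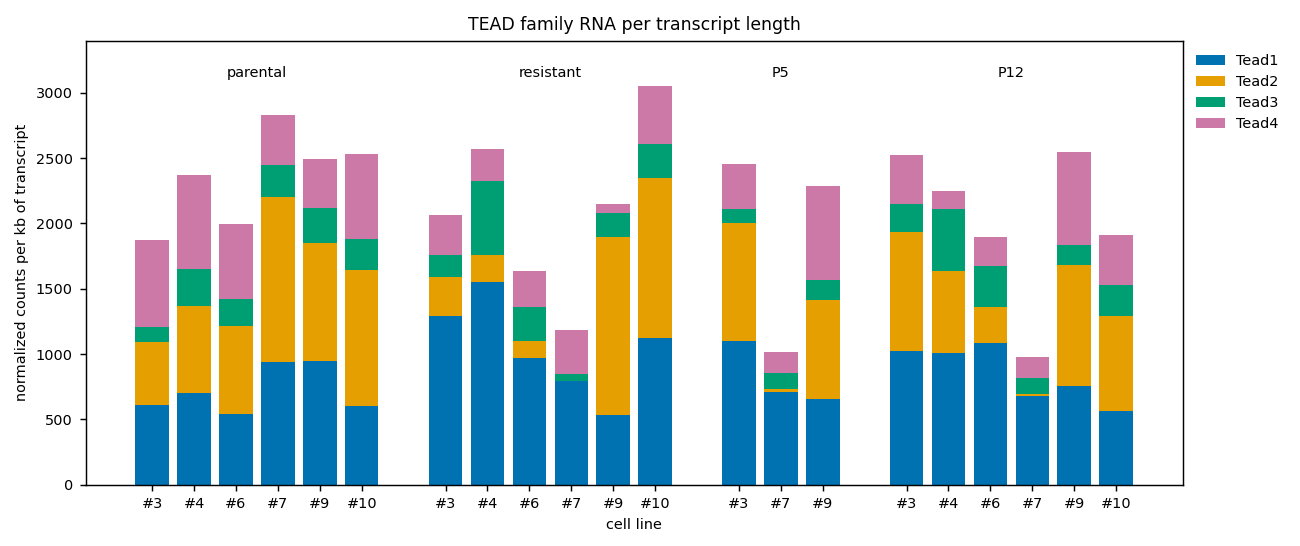
Normalized counts per kb of the longest coding transcript (linear axis from 0) of Tead1 to Tead4, stacked for each sample and ordered by state and cell line. The summed level in resistant cells runs from 1188 in line #7 to 3049.8 in line #10, and the Tead2 segment is barely visible in line #7 after the parental state.

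Lats2 (chr14:57689662-57758388, minus strand), the kinase that phosphorylates YAP and TAZ, rose in resistant cells and fell after withdrawal. Parental cells had 1084 to 2101 normalized counts (median 1809), resistant cells 1796 to 6671 (median 5087) and P12 cells 1190 to 2018 (median 1306). The single overlap with the parental range came from the resistant sample of line #9, at 1796, and it was also the one inside the P12 range, while the other 5 resistant samples had 2984 or more. In 6 of 6 lines resistant cells were above parental cells, as in 8.99% of all genes, by log2 differences of 0.73 (line #9) to 1.76 (line #6), and P12 cells were below resistant cells. The fold change was 2.47 in resistant versus parental cells (log2 1.31, SE 0.28, limma adjusted p = 0.00392), and resistant cells had 2.95-fold more than P12 cells (log2 -1.56 in P12 versus resistant, SE 0.28, limma adjusted p = 0.00242). In P12 versus parental cells it was -0.25 on the log2 scale (SE 0.28, limma adjusted p = 0.696). From the state means, -19.3% of the rise was kept in P12, which lay below parental, with a range over lines of -56.4% (line #7) to 40.7% (line #9). In bulk RNA, more cells with a transcript and more of it per cell cannot be told apart. Without line #3, #4, #6, #7 or #10 the rise kept its size (log2 1.22 to 1.35) with a limma adjusted p of 0.0129 to 0.0256, above the threshold of 0.01, and without line #4, #7 or #10 the fall (-1.44 to -1.50) had 0.0175 to 0.0226. Without line #9 both were called, at 1.42 and -1.78. The paralogue Lats1 had 2037 to 3025 normalized counts in parental and 1388 to 3164 in resistant cells, with a log2 fold change of -0.21 (SE 0.22, limma adjusted p = 0.569).

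Amotl2 (chr9:102716672-102733418, plus strand) codes for an angiomotin protein that binds YAP and holds it outside the nucleus, and it is a known TEAD target. Parental cells had 3360 (line #3) to 11703 (line #4) normalized counts with a median of 5915. Resistant cells had 5925 (line #9) to 21795 (line #10) with a median of 19231, and P12 cells 1375 (line #3) to 5807 (line #6) with a median of 3480.3. Every resistant sample was above every P12 sample, while lines #3 and #9 in the resistant state lay inside the parental range. Resistant cells had 4.35-fold more Amotl2 than P12 cells (log2 -2.12 in P12 versus resistant, SE 0.42, limma adjusted p = 0.00458), lower in P12 in 6 of 6 lines. In resistant versus parental cells the log2 fold change was 1.29 (SE 0.42, limma adjusted p = 0.0419), higher in 6 of 6 lines, which was not called without and called with the line as a block (adjusted p = 0.000294). In P12 versus parental cells it was -0.83 (SE 0.42, limma adjusted p = 0.353, or 0.0270 with the block), lower in 6 of 6 lines. Leaving out a line other than #9 took the adjusted p of P12 versus resistant cells to 0.0129 to 0.0276. The relative Amot had 1148 to 6943 normalized counts in parental and 296 to 5236 in resistant cells, with a log2 fold change of -1.10 (SE 0.64, limma adjusted p = 0.268), and the highest in both was line #9.

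Ajuba (chr14:54567472-54577558, minus strand) is a LIM domain protein that binds LATS kinases and restrains them. Its normalized counts were 1594 (line #9) to 6237 (line #4) in parental cells (median 4370.4), 2213 (line #3) to 11239 (line #7) in resistant cells (median 3394) and 1119 (line #3) to 2652 (line #6) in P12 cells (median 1585). Resistant cells were above parental cells in lines #6, #7 and #9 and below in lines #3, #4 and #10, and P12 was lower than resistant cells in 6 of 6 lines, as were 8.20% of all genes. Between resistant and parental cells the log2 fold change was 0.20 (SE 0.41, limma adjusted p = 0.793). In P12 versus resistant cells it was -1.44 (SE 0.41, limma adjusted p = 0.0392), which was not called without and called with the line as a block (adjusted p = 0.00738). In P12 versus parental cells it was -1.24 (SE 0.41, limma adjusted p = 0.154, or 0.0357 with the block), lower in 6 of 6 lines, as were 6.96% of all genes.

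Ankrd1 (chr19:36111961-36120099, minus strand), an ankyrin repeat protein widely read as an output of YAP and TEAD, moved in opposite directions between lines. In lines #6, #7 and #10 it went from 5865, 4460.3 and 4838 normalized counts in parental cells to 8003, 13184 and 22703 in resistant cells. In lines #3, #4 and #9 it went from 726, 7544 and 3848 to 91.9, 47.5 and 669. Resistant samples therefore fell on both sides of the parental range, from a log2 difference of -7.28 in line #4 to 2.23 in line #10. After withdrawal all 6 P12 values, at 237 to 3718, were below those of their parental cells, as were 6.96% of all genes in 6 of 6 lines. Lines #3 and #4 stayed lowest, at 369 and 237. The log2 fold change was -1.42 in resistant versus parental (SE 1.33, limma adjusted p = 0.523), -0.053 in P12 versus resistant (SE 1.33, adjusted p = 0.990) and -1.47 in P12 versus parental cells (SE 1.33, adjusted p = 0.622), and none was called.

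Ctgf and Cyr61, the matricellular genes most often used to read YAP and TEAD, were also not called. Ctgf went from 5915, 18792 and 1918 normalized counts in parental cells of lines #3, #4 and #9 to 503, 841 and 826 in resistant cells. In line #10 it went from 6292 to 30567, in line #6 from 12793 to 14668 and in line #7 from 18868 to 10201. The lines in which Ankrd1 was lower in resistant cells were thus lower in Ctgf too, with line #7 apart. Over all 21 samples the log2 values of Ankrd1 and Ctgf had a Pearson r of 0.76, and those of Ankrd1 and Cyr61 0.47, a description, since samples share lines and states. The log2 fold change of Ctgf in resistant versus parental cells was -1.28 (SE 0.95, limma adjusted p = 0.407) and that of Cyr61 was 0.25 (SE 0.56, adjusted p = 0.809). In Cyr61 line #10 stood highest in resistant cells, at 15944 normalized counts.

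**Figure D4:**
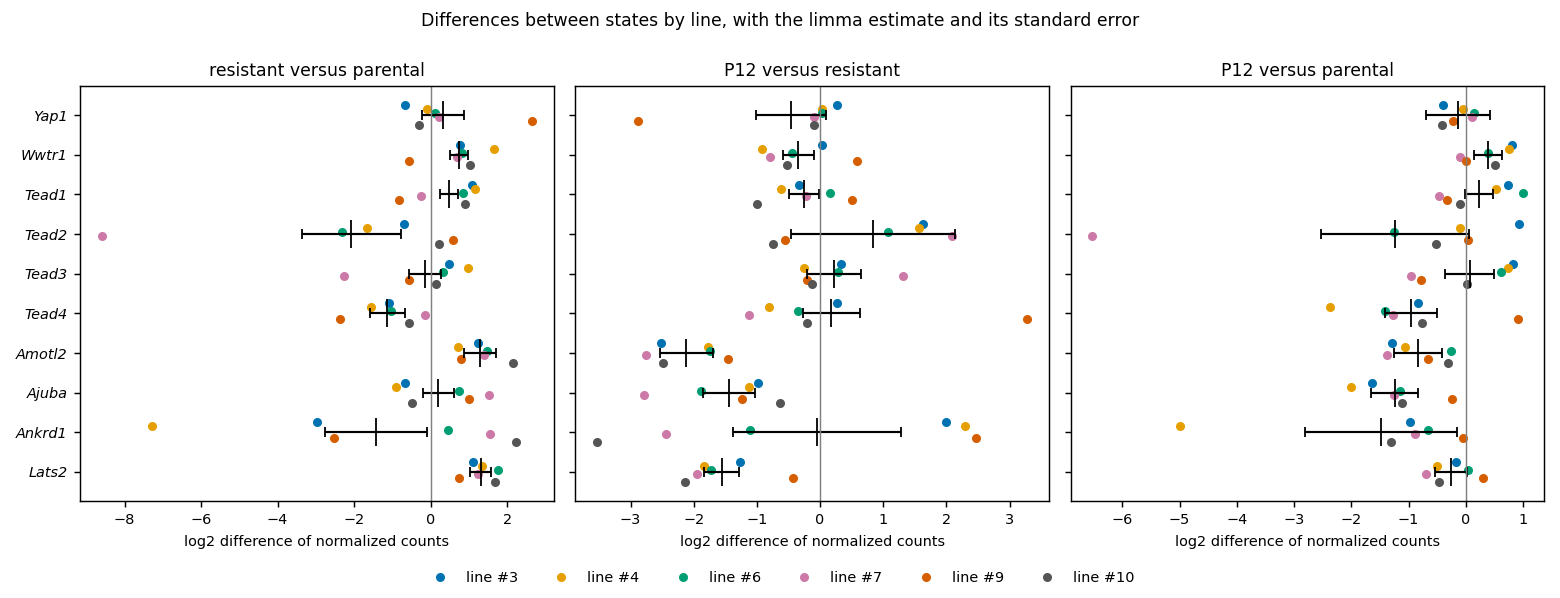
Log2 differences of normalized counts between states for the 10 genes, with 1 point per cell line and, in black, the limma estimate with its standard error. Points for Lats2 and Amotl2 lie on one side of 0 in 6 of 6 lines for resistant versus parental and for P12 versus resistant cells, while those of Ankrd1 run from -7.28 to 2.23 in resistant versus parental cells.

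Other pathway genes came from a list of 53, of which 52 were tested, and 7 of these 52 were called in resistant versus parental cells, 4 higher and 3 lower, beside a background of 5.30% (2.57% called higher and 2.73% lower). Their median log2 fold change was -0.024, and over all genes -0.0049. The count of 7 was 2 without line #4, 1 without line #6 and 3 without line #10. Calls over all genes fell as well in these fits, from 1023 to 468, 450 and 501. Of 19 upstream genes 2 were called. Fat4, an atypical cadherin upstream of the kinases, rose from 2.01 to 318 normalized counts in parental to 155 to 12155 in resistant cells (log2 6.77, SE 1.31, limma adjusted p = 0.00203). Sav1, the scaffold of the MST kinases, fell from 2828 to 5099 in parental to 1172 to 2557 in resistant cells, without overlap (log2 -1.21, SE 0.27, limma adjusted p = 0.00560), as were 5.99% of all genes. The MST kinase genes themselves, Stk3 (log2 0.52, limma adjusted p = 0.192) and Stk4 (log2 0.19, adjusted p = 0.585), and Nf2 (log2 0.10, adjusted p = 0.754), which codes for the activator merlin, were not called. Nf2 turned to -0.0032 without the resistant sample of line #9.

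Of 15 tested partners of YAP or TEAD, 2 were called in resistant versus parental cells, both higher, beside 5.30% of all genes (2.57% called higher). Both are Vestigial-like cofactors that bind TEAD. Vgll3 had 1.54 to 11.9 normalized counts in parental cells, in part under the value of 3 reads. It had 1898 to 4321 in resistant cells of 5 lines and 42.5 in line #9 (log2 7.52, SE 1.09, limma adjusted p = 0.000201). In P12 it was at 9.20 to 571 normalized counts, and the log2 fold change of P12 versus resistant cells, -4.57 (SE 1.09, limma adjusted p = 0.0155), was called with the line as a block alone (adjusted p = 0.00318). Vgll4, which competes with YAP for TEAD, rose from 923 to 1632 in parental to 1632 to 5022 in resistant cells (log2 1.01, SE 0.22, limma adjusted p = 0.00539). It was the one pathway gene of the 52 that was called in P12 versus resistant cells, beside 2.13% of all genes in either direction. There it fell (log2 -1.06, SE 0.22, limma adjusted p = 0.00760), to 992 to 1594 normalized counts. When line #3, #4, #6, #7 or #10 was left out, 0 of the 52 were called by limma in P12 versus resistant cells, and without line #9 there were 3. Calls over all genes in these fits went from 412 to between 132 and 259, and to 467 without line #9. The resistant sample of line #9 had the most Vgll4 and the least Vgll3.

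Of 19 TEAD target genes 3 were called in resistant versus parental cells, 1 higher and 2 lower, or 1 higher and 4 lower with the line as a block. Over all genes 2.57% were called higher and 2.73% lower, or 4.85% and 5.60% with the block. The median log2 fold change of the list was -0.26, 11 of its 19 values were negative, and its median size was 1.28, against 0.50 over all genes. The list was chosen with earlier results of these data known, so these values are a description. Tgfb2, a TGF-beta ligand, rose from 40.9 to 453 normalized counts in parental to 3532 to 9743 in resistant cells, without overlap (log2 5.16, SE 0.99, limma adjusted p = 0.00189), as were 5.99% of all genes. Axl, a receptor tyrosine kinase, fell from 19504 to 38088 to 6731 to 18826 normalized counts, again without overlap (log2 -1.35, SE 0.26, limma adjusted p = 0.00177). Fjx1, the homologue of a fly kinase of Fat cadherins, fell from 202 to 1296 to 30.9 to 474 (log2 -2.78, SE 0.57, limma adjusted p = 0.00321). With the line as a block, the targets F3 (log2 -2.13, limma adjusted p = 0.00821) and Myof (-1.23, adjusted p = 0.00295) and the upstream cadherin gene Fat1 (-1.05, adjusted p = 0.00975) were called lower as well, so that of all 52 pathway genes 4 were higher and 6 lower, beside 4.85% and 5.60% of all genes. With the same block 6 of the 52 were called in P12 versus resistant cells: Axl (log2 1.04, adjusted p = 0.000887) and Sav1 (1.08, adjusted p = 0.000853) higher, and Vgll3, Vgll4, Tgfb2 (-4.43, adjusted p = 0.00319) and Ptpn14 (-1.06, adjusted p = 0.00546), a phosphatase that binds YAP, lower, beside 2.52% of all genes called higher and 2.00% lower. In P12 versus parental cells limma called 0 of the 52 with or without the block (0.523% and 0.114% of all genes), and 4 of 52 had an unadjusted p below 0.05, beside 15.3% of all genes.

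**Figure D5:**
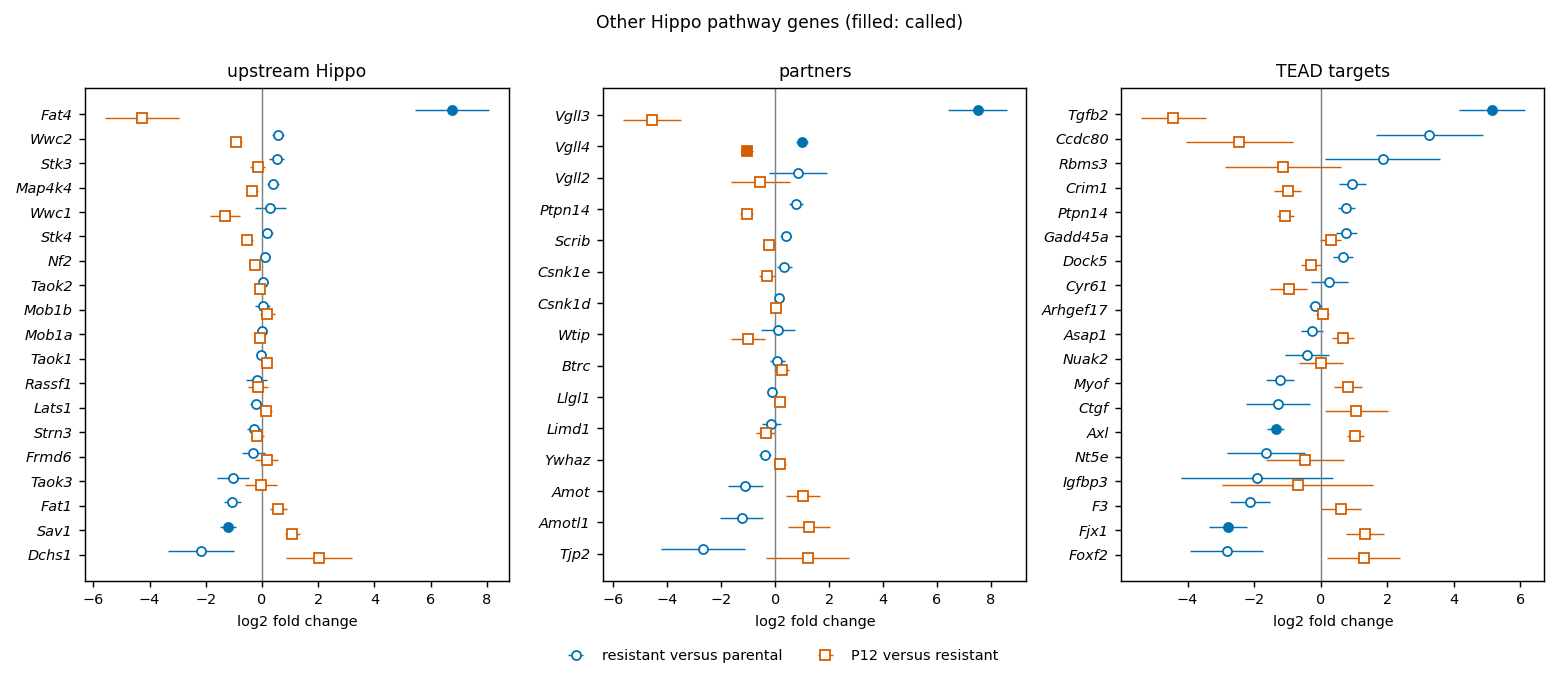
Limma log2 fold changes with their standard errors for 52 other pathway genes (Ptpn14 stands in 2 panels), in resistant versus parental (circles) and P12 versus resistant cells (squares), with called genes filled. In resistant versus parental cells 7 genes are filled, and in P12 versus resistant cells Vgll4 is.

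P5 cells of 3 lines were below resistant cells in Amotl2, Lats2 and Ajuba in each line. Amotl2 had 1577, 3719 and 2258 normalized counts in P5 of lines #3, #7 and #9, and P12 minus P5 gave log2 differences of -0.29 to -0.064. Lats2 had 815, 1450.0 and 1655, where line #9 was close to its resistant value of 1796. Ajuba had 793, 2001 and 1915. With 3 lines and a label that disagrees on the number of passages for #7 and #9, these values were not tested. The share of all genes that were lower in P5 than in resistant cells of each line was not computed. The shared direction is therefore a description only.

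The genes most like each of the 10 were found by Pearson r of log2 values over the 21 samples, a description, since samples share lines, states and depth. For Lats2 they were Sptan1 (r 0.94), Pip4k2c (0.91) and Amotl2 (0.91). Amotl2 was likest to Lats2 (0.91), Lrp10 (0.89) and Gm2a (0.89), so the pair was among each other's nearest 3 of 19300 genes. Ajuba, whose nearest was Ankrd13a (0.89), had an r of 0.80 with Amotl2 and 0.72 with Lats2. For Yap1 the nearest was its neighbour Dcun1d5 (0.94), and without the resistant sample of line #9 Gm3375 (0.87), Timp1 (0.86) and Apln (0.86) took its place. The nearest was Ifngr2 (0.84) for Wwtr1, Fap (0.84) for Tead1, Vangl2 (0.96) for Tead2, Gnas (0.88) for Tead3, Fgfbp3 (0.82) for Tead4 and Lrfn4 (0.83) for Ankrd1. Yap1 itself had an r between -0.11 and 0.34 with Amotl2, Ajuba, Ankrd1 and Lats2 once the resistant sample of line #9 was left out.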

How the data were processed

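RNA of 21 samples was read from poly-A selected libraries (TruSeq Stranded mRNA). The deposited values are a signal, gene-level counts on the scale of size factors: the authors removed adapters (Skewer 0.1.116 and 0.2.2), estimated transcript abundance with Salmon 0.12, summed it per gene in TXImport 1.6 and scaled the sums by DESeq2 1.18, per the labels and the methods. Sequencing used more than 1 instrument model, not assigned to samples, so no comparison within runs was made. Low values fell on whole steps for 71.7% to 80.8% (tolerance 0.1), so whole reads could not be recovered and no count model was run. Values were taken as log2(value + 1), which understates changes of low genes, 19300 of 34478 genes reached 10 in 3 or more samples and were kept, and limma 3.58.1 (R 4.3.3, lmFit and eBayes with a trend) was fitted to all 4 states, with Benjamini-Hochberg adjustment over all genes. Tests were checked on simulated data with large changes, a capped spread between samples and no effect of the line. That check does not cover the wider spread and the pairing of these data. Other steps ran in Python 3.11.15 (pandas 2.3.3, numpy 2.4.6, and matplotlib 3.10.9 for plots). The genes and lists were chosen from general knowledge with earlier results of these data known. Named were the 10 genes, every pathway gene called in a comparison without or with the block, Ctgf, Cyr61, Lats1, Nf2, Amot, Stk3, Stk4 and Vgll4, and the 3 genes most like each of the 10, of which the nearest is given for some.

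Samples of the same number come from the same cell line, which pairs the states. Their deviations from the state means correlated at 0.159 to 0.352 (parental and resistant), 0.337 to 0.520 (resistant and P12) and 0.00819 to 0.510 (parental and P12), while those of different lines averaged -0.0462, -0.0903 and -0.0645. An item of the genotype and a marker are not reported here. Gene lengths and positions are from GENCODE M21 (GRCm38), and promoter sequences from RefSeq (GRCm38). Alternatives were pseudocounts of 0.5 and 8, no filter or a mean of at least 100, upper quartile scaling, the line as a block, no trend, an adjusted p below 0.05, fits with no other state than those compared, each line left out, and, chosen after seeing the data, leaving out the resistant sample, the parental sample or, with the block, all samples of line #9.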

Additional observations from a re-analysis of the deposited data

Results flagged for a closer look

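In 30 groups of 6 samples (the 10 genes in parental, resistant and P12 cells), 5 had a sample whose gap to the next exceeded the 95% critical value of Dixon's test, where chance gives about 1 in 20 groups. Yap1 was high in line #9, at 11116 normalized counts in parental cells, where the other 5 lines had 4659 to 5855, and at 69769.9 in resistant cells, where they had 2943 to 5525. Tead2 was low in P12 cells of line #7, at 45.8 against 950.4 to 3153. Tead4 was low in resistant cells of line #9, at 224 against 749 to 1356. Ankrd1 was low in parental cells of line #3, at 726 against 3848 to 7544. The 5 values came from 4 samples, of which the parental and the resistant sample of line #9 gave 3.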

How the results depend on the processing

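Each state has 1 sample per line, the depth was estimated and not known, and calls sat close to the threshold. With the cell line as a replicate block, 2 of the 10 genes were called in resistant versus parental cells (1 without it) and 6 other pathway genes in P12 versus resistant cells (1 without it). Over all genes the block took the calls from 1023 to 2017 and from 412 to 872 in these 2 comparisons. The block changed no other call of the 10 and the pathway genes beyond those given with its values in the report. Among the check lists it added, beside Ccnd1 as given there, Cdh1, Krt8 and Krt18 (lower) and Col1a1 and Col3a1 (higher) in resistant versus parental cells, Pecam1 and Prss2 (higher) in P12 versus resistant cells and Cldn7 (lower) in P12 versus parental cells. An adjusted p below 0.05 gave 2 of 10 and 6, and a fit of the compared states alone gave 0 of 10 in both comparisons and 0. Over all genes the looser threshold called 2190 and 947, and the compared states alone called 890 and 103. Other pathway genes in P12 versus resistant cells numbered 2 with a pseudocount of 8 or a mean of at least 100, and 0 with no filter or no trend. All-gene calls in these 4 fits were 356, 325, 312 and 365. Leaving out a line gave 0 of 10 in resistant versus parental cells, or 1 without #9, and in P12 versus resistant cells 0 (without #4, #7 or #10), 1 (#3 or #6) or 2 (#9). Calls over all genes moved too. In resistant versus parental cells they were 506, 468, 450 and 501 without #3, #4, #6 or #10, and 1084 and 1237 without #7 or #9. In P12 versus resistant cells they were 132 (without #4) to 259 (without #7), and 467 without #9. With a line left out, other pathway genes in resistant versus parental cells numbered 1 (without #6) to 6, with 2 without #4 and 3 without #10, and in P12 versus resistant cells 0, or 3 without #9. Without line #9 and with the block there were 2 and 3 of 10 and 8 and 3 other pathway genes, and without its resistant sample 3 of these in P12 versus resistant cells. All-gene calls there were 1989 and 810 with the block, and 512 without the resistant sample.

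Log2 fold changes that turned were all of values not called. With a line or a sample left out, in resistant versus parental cells, Yap1 ran from -0.34 (without the resistant sample of #9, and -0.15 without line #9, block or not) to 0.51, Tead3 from -0.38 to 0.27 (without #7), Ajuba from -0.065 (without #7, and -0.063 without the parental sample of #9) to 0.42, Cyr61 from -0.11 (without #10) to 0.48 and Nf2 from -0.0032 (without the resistant sample of #9) to 0.20. In P12 versus resistant cells, Yap1 ran from -0.60 to 0.20 (without the resistant sample of #9, and 0.027 without line #9, block or not), Tead4 from -0.44 (without line #9, block or not, and -0.18 without its resistant sample) to 0.44, and Ankrd1 from -0.56 to 0.64 (without #10, and 0.16 and 0.42 without #6 and #7), with 0.038 under upper quartile scaling. In P12 versus parental cells, Yap1 ran from -0.20 to 0.050 (without the parental sample of #9), Tead3 from -0.077 (without #3, and -0.059 and -0.035 without #4 and #6) to 0.28, Ctgf from -0.66 to 0.060 (without #3), Lats1 from -0.21 to 0.048 (without #4), Amot from -0.42 to 0.26 (without the parental sample of #9, 0.13 without #7 and 0.017 without line #9, block or not), Vgll4 from -0.15 to 0.017 (without #3) and Tgfb2 from -0.058 (without #3) to 1.65. The cause of these changes was not tested.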
